A study of Homo sapiens with 8 samples.

Results

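The genes described here make and use microRNAs (miRNAs). They are the Argonaute genes AGO1, AGO2, AGO3 and AGO4, the GW182 scaffold genes TNRC6A, TNRC6B and TNRC6C, and the processing genes DROSHA, XPO5 and DICER1. They were chosen by name, and all 10 were found under their current symbols among the 43317 names on the array, with 15 of its 58201 probes. The question was whether cells given a mature miRNA held more or less mRNA of the machinery that such a miRNA uses.

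Two-channel Agilent arrays of 60-base probes were used, 8 in all and 1 per miRNA. On each array the Cy5 channel held RNA of cells transfected with 1 miRNA by Lipofectamine RNAiMAX, and its Cy3 channel that of mock cells from the same line, which the labels give as not transfected. HCT116, a human colon cancer line, received the 5p or the 3p strand of miR-139 or of miR-143. PANC-1, a human pancreatic cancer line, received miR-30c-5p or miR-30c-2-3p, called the miR-30c strands here, or either strand of miR-30a. Values of a precursor are given for its 5p strand first and its 3p strand second. No replicate array and no array of a non-targeting control miRNA was analysed here, so the ratios carry no test across cultures. No array had the dyes swapped, so dye and transfection cannot be told apart within an array.

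A primary miRNA transcript is cut in the nucleus by DROSHA, carried to the cytoplasm by XPO5 (exportin 5) and cut again by DICER1. One strand of the duplex is then loaded into an Argonaute protein, and AGO2 is the member of that family best known for cutting its target. Argonaute binds a TNRC6 protein, which recruits deadenylases that shorten the poly(A) tail of the target, and decapping and decay follow. A transfected mature miRNA enters after the steps of DROSHA and XPO5 and competes for Argonaute with the miRNAs of the cell.

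Target choice rests mainly on the seed, bases 2 to 8 of the mature miRNA. The mature sequences are shown 5′ to 3′ to allow the seeds to be compared, with the seed in capitals. They were taken from RefSeq, where all 8 names were found.
miR-139-5p: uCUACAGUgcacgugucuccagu
miR-139-3p: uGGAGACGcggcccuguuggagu
miR-143-5p: gGUGCAGUgcugcaucucuggu
miR-143-3p: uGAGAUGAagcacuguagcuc
miR-30c-5p: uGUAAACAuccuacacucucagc
miR-30c-2-3p: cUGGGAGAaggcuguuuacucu
miR-30a-5p: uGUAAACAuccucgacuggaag
miR-30a-3p: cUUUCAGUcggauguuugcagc
The 5p strands of both miR-30 precursors carried the same seed, GUAAACA, and each of the other 6 seeds belonged to 1 miRNA.

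The mock channels were checked against markers of the lines. CDH1 and EPCAM, epithelial adhesion genes, were 7.59-fold and 19.9-fold higher in HCT116, and VIM, a mesenchymal filament gene, was 397-fold higher in PANC-1. These markers set the lines apart in the direction looked for but do not identify either line. Between 20111 and 22065 genes were detected per array, which means that the signal of the probe standing for the gene passed the scanner's test against background in 1 channel or both. Each gene is represented by its brightest probe. Those probes of the 10 machinery genes were well above background in both channels of all 8 arrays. The number of arrays limits the precision. Over 300 probes printed 10 times, the SD between spots had a median of 0.0393 to 0.0647 by array, which covers the hybridisation and not the cultures. Mock channels on arrays of 1 precursor were at least 1.5-fold apart for 6 to 33 genes, but those on arrays of different precursors for 950 to 1018 genes in HCT116 and 221 to 238 in PANC-1. In bulk RNA a lower level can come from fewer cells of a kind or from less RNA per cell, which cannot be told apart.

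Of the 80 log2 ratios of transfected over mock, 12 were at least 1.5-fold above mock and 2 were at least 1.5-fold below. Over the values of all detected genes on all arrays, 3.69% were above mock and 4.52% below by that size. DICER1 gave 6 of the 14 machinery values past 1.5-fold, TNRC6A 3, TNRC6C 2, and AGO1, AGO3 and DROSHA 1 each. In the main processing AGO2, AGO4, TNRC6B and XPO5 stayed within 1.5-fold of mock on every array. Other processing put AGO2, AGO4 and TNRC6B past that size on some arrays. At the 2-fold size, 5 values lay above mock and 0 below. Of all detected genes, 0.0587% and 2.11% with the strands of miR-139, 0.356% and 0.517% with those of miR-143, 0.747% and 1.71% with the miR-30c strands and 0.306% and 0.372% with those of miR-30a were at least 2-fold above mock. The shares at least 2-fold below were 0.201% and 2.82%, 1% and 0.925%, 0.445% and 4.14%, and 0.263% and 1.1% in the same order. Centring each array on its median in place of loess gave 24 values above mock by 1.5-fold and 0 below, and it also put the median of all detected genes at 0.03 to 0.30.

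**Figure D1:**
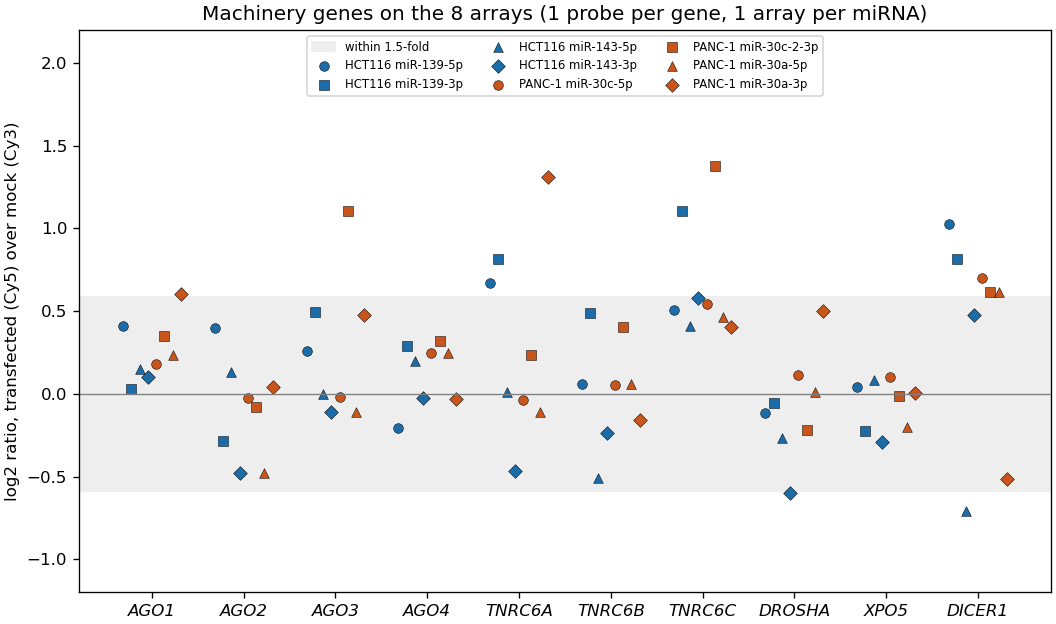
Log2 ratio of transfected (Cy5) over mock (Cy3) RNA on the y axis for the 10 machinery genes on the x axis, with 1 point per array (blue, HCT116; orange, PANC-1) and no error bars because each miRNA had 1 array. The grey band marks values within 1.5-fold of mock, and 14 of the 80 points lie outside it, 12 above and 2 below.

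On the miR-139-5p array 2 machinery genes were at least 1.5-fold above mock, TNRC6A and DICER1, where 0.753% of all detected genes were. On the miR-139-3p array 3 were, TNRC6A, TNRC6C and DICER1, beside 7.41% of all detected genes. On the miR-30c-2-3p array 3 were, AGO3, TNRC6C and DICER1, beside 7.07%. On the miR-30a-3p array 2 were, AGO1 and TNRC6A, beside 3.37%. DICER1 was the 1 gene above that size on the miR-30c-5p array, beside 3.2% of all detected genes, and on the miR-30a-5p array, beside 1.83%.

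No machinery gene was at least 1.5-fold above mock on the miR-143-5p array, where 2.7% of all detected genes were, or on the miR-143-3p array, where 3.18% were. The values below mock by that size were DICER1 on the miR-143-5p array, beside 4.07% of all detected genes, and DROSHA on the miR-143-3p array, beside 4.74%. On the other 6 arrays the count below mock was 0, beside 1.1% (miR-139-5p), 8.18% (miR-139-3p), 2.52% (miR-30c-5p), 10.2% (miR-30c-2-3p), 1.7% (miR-30a-5p) and 3.76% (miR-30a-3p). With 10 genes, a share near these percentages corresponds to 0 or 1 gene.

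The median log2 ratio of the 10 genes was 0.33 and 0.39 for the 5p and 3p strands of miR-139 and 0.05 and -0.17 for those of miR-143 in HCT116. In PANC-1 that median was 0.11 and 0.34 for the miR-30c and 0.04 and 0.22 for the miR-30a strands. The median of all detected genes lay between 0.01 and 0.02 on the 8 arrays. The genes were thus above mock by their median on 7 arrays, although that of miR-143-5p was -0.03 with both mock averages of the line pooled, and they were below it on the miR-143-3p array, where 7 of 10 lay below 0. These are descriptions of 10 genes that differ among themselves, as the wide spread within each array shows.

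**Figure D2:**
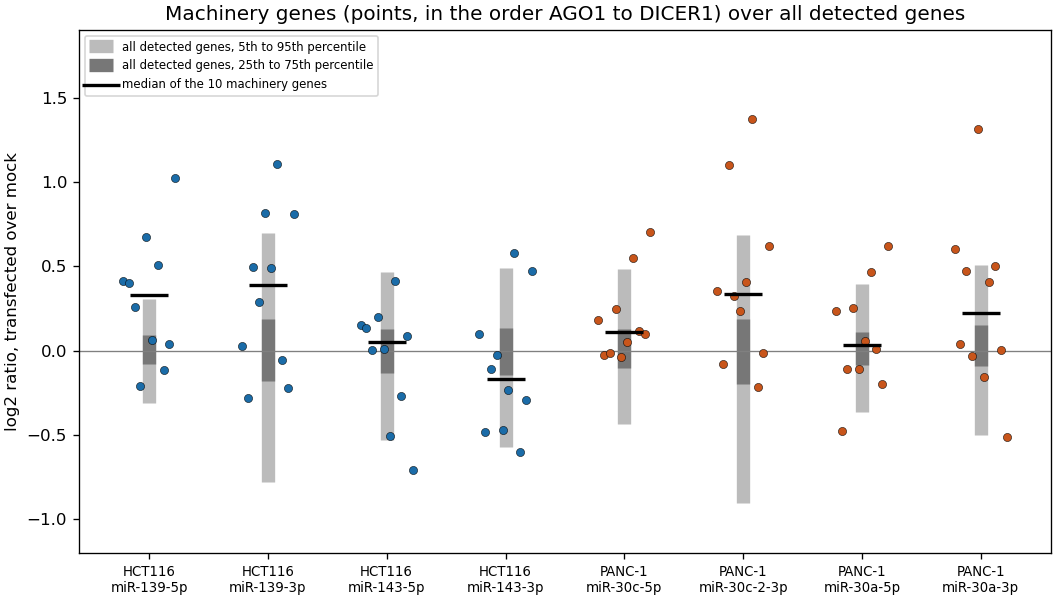
Log2 ratio of transfected over mock on the y axis for each array on the x axis. Points are the 10 machinery genes in the order AGO1 to DICER1, the black bar is their median, and the grey bars span the 25th to 75th and the 5th to 95th percentile of all detected genes. The black bar is highest for miR-139-3p at 0.39 and lowest for miR-143-3p at -0.17.

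DICER1, the cytoplasmic RNase that releases the mature duplex, was the gene most often past 1.5-fold. Its log2 ratio in HCT116 was 1.03 and 0.81 with the 5p and 3p strands of miR-139 and -0.71 and 0.47 with those of miR-143. The PANC-1 values were 0.70 and 0.62 with the miR-30c and 0.62 and -0.51 with the miR-30a strands. DICER1 was thus above mock on 6 arrays and below it on 2, 1 in each line. Under median centring it was at 0.04 with miR-30a-3p, where the median of all detected genes was 0.30, and on the other 7 arrays it kept its sign. With miR-139-5p it was 2.04-fold above mock and ranked 12 from the top of 20445 detected genes. With miR-143-5p it was 1.63-fold below mock and ranked 536 from the bottom of 20502.

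The mock level of DICER1 barely moved between arrays. On a log2 scale after Aquantile normalisation of both channels, it lay between 8.21 and 8.32 in HCT116 and between 8.17 and 8.23 in PANC-1. The transfected level ran from 7.51 to 9.32 in HCT116 and from 7.71 to 8.88 in PANC-1. The differences between arrays therefore lay in the transfected channel. Set against the median of the other 3 transfected channels of its line, all in Cy5, DICER1 was lower by 1.63 on the log2 scale when cells had received miR-143-5p, lower by 1.14 after miR-30a-3p, and below each of those 3 in both lines. DICER1 had 1 probe, at chr14:95552615-95552674 of hg19 on the minus strand, and its place within the transcript was not analysed here.

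**Figure D3:**
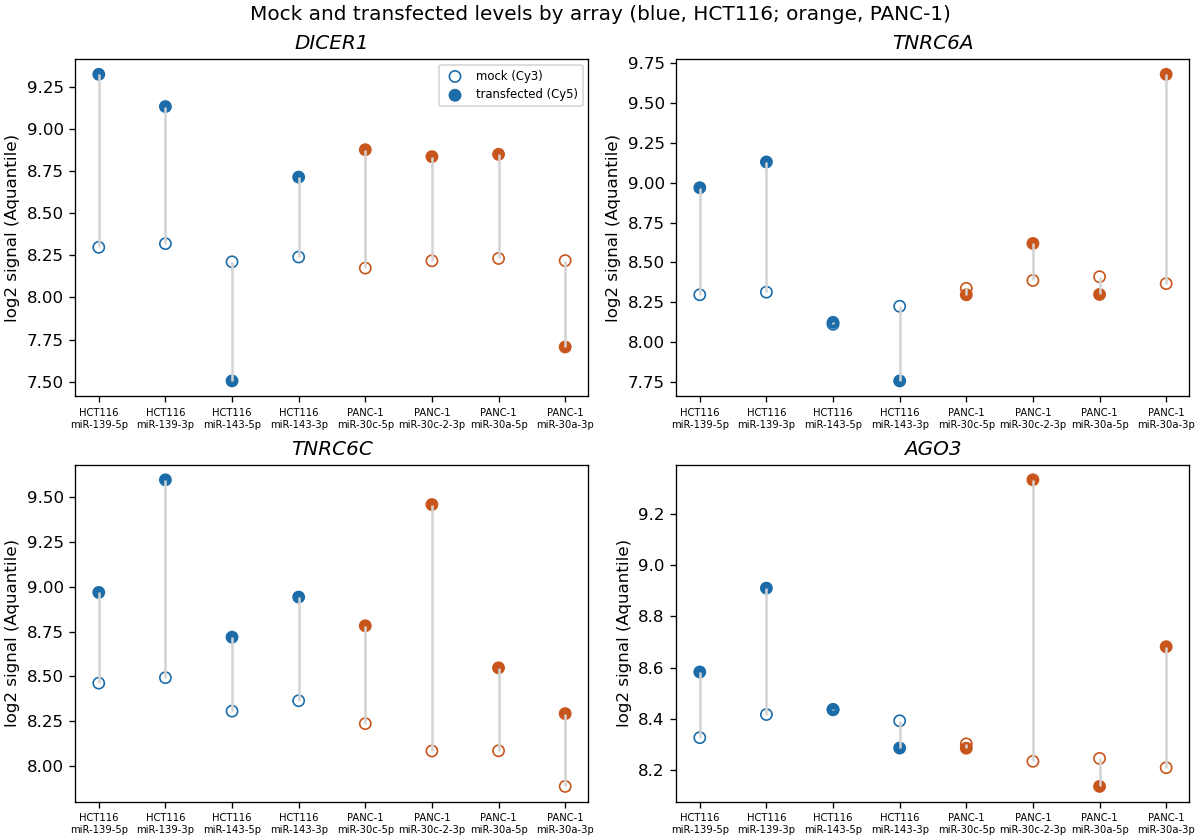
Log2 signal after Aquantile normalisation on the y axis for each array on the x axis, in 1 panel each for DICER1, TNRC6A, TNRC6C and AGO3. Open circles are mock (Cy3) and filled circles are transfected (Cy5) channels, blue for HCT116 and orange for PANC-1. The open circles of DICER1 sit between 8.17 and 8.32, while its filled circles range from 7.51 to 9.32. The y axes do not start at 0 and differ between panels.

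TNRC6A, a GW182 scaffold, had a range of 1.78 over the 8 log2 ratios, the widest of the 10 genes and close to the 1.73 of DICER1. With pooled mocks the ranges were 1.79 and 1.82, and by the scanner log ratio 1.98 and 2.09, so the order of the 2 genes depends on the processing. The log2 ratios in HCT116 were 0.67 and 0.82 with the 5p and 3p strands of miR-139 and 0.01 and -0.47 with those of miR-143. PANC-1 cells gave -0.04 and 0.23 with the miR-30c and -0.11 and 1.31 with the miR-30a strands. Both strands of miR-139 thus went with higher TNRC6A, and in PANC-1 the value with miR-30a-3p stood apart from the other three. With miR-30a-3p TNRC6A was 2.49-fold above mock and ranked 24 from the top of 22065 detected genes, where 0.372% of all detected genes were at least 2-fold above mock. Its transfected level there was 1.38 above the median of the other 3 Cy5 channels of PANC-1 and above each of them. TNRC6A had 1 probe, at chr16:24835610-24835669 of hg19 on the plus strand.

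Among 17405 genes detected on all 8 arrays, those with the smallest root mean square difference from TNRC6A over the 8 log2 ratios were GPR137B (0.27), RAP2C (0.32) and PER1 (0.33). GPR137B, which encodes a lysosomal membrane protein, stood at log2 ratios of 0.86 and 0.79 for the miR-139 strands and of 1.12 for miR-30a-3p. RAP2C, a small GTPase gene, was at 0.95 with miR-30a-3p and at -0.69 with miR-143-3p. PER1, a circadian clock gene, was at 0.74 and -0.23 on the same arrays. These genes were picked for their likeness over the same values, which carries no test.

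TNRC6C, also a GW182 scaffold, lay above mock on all 8 arrays. In HCT116 its log2 ratio was 0.51 and 1.10 with the 5p and 3p strands of miR-139 and 0.41 and 0.58 with those of miR-143. In PANC-1 it was 0.55 and 1.38 with the miR-30c and 0.46 and 0.41 with the miR-30a strands. The lowest of the 8 values was 0.41, and 6 of the 17405 genes detected on all arrays, TNRC6C included, had a lowest value at least that high. A log2 ratio above 0 on all 8 arrays was itself found for 630 of the 17405 genes (3.62%). Since every array had the miRNA in Cy5, a dye difference of this probe and a response to transfection cannot be told apart for the part of the ratio that all 8 arrays share.

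What differed between arrays within a dye was larger with 2 miRNAs. With miR-139-3p the transfected TNRC6C level was 0.65 above the median of the other 3 Cy5 channels of HCT116, and with miR-30c-2-3p 0.91 above that of PANC-1, in both cases above each of the other three. The shares of all detected genes at least 2-fold above mock on these arrays were 2.11% and 1.71%. The brighter probe lies at chr17:76101674-76101733 of hg19 and a second, dimmer probe 3139 bases further along the plus strand. The second probe gave 0.39 with miR-139-3p and 0.42 with miR-30c-2-3p, its highest values, and between -0.02 and 0.13 on the other 6 arrays. It was well above background in Cy3 on 6 of 8 arrays, and the added offset of 50 draws the ratio of so dim a probe towards 0, since the log ratio of the scanner software, which has no such offset, was 1.66 and 2.30 there. Both probes thus put the same 2 arrays first.

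TNRC6B, the remaining GW182 gene, stayed within 1.5-fold of mock in the main processing. Its log2 ratio in HCT116 was 0.06 and 0.49 with the 5p and 3p strands of miR-139 and -0.51 and -0.23 with those of miR-143. The ratio in PANC-1 was 0.05 and 0.41 with the miR-30c and 0.06 and -0.16 with the miR-30a strands. Its highest values were on the 2 arrays on which TNRC6C was highest. No test of a difference between these genes was possible with 1 array per miRNA.

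AGO1 lay above mock on all 8 arrays by its brighter probe. The log2 ratios in HCT116 were 0.41 and 0.03 with the 5p and 3p strands of miR-139 and 0.15 and 0.10 with those of miR-143. The PANC-1 values were 0.18 and 0.35 with the miR-30c and 0.24 and 0.60 with the miR-30a strands. The mock level of AGO1 differed by 0.51 on the log2 scale between the miR-139 and miR-143 arrays of HCT116, so its HCT116 ratios depend on the mock channel used. With both mock averages of the line pooled, 6 of the 8 values were above 0 and that of miR-139-3p was at 0.47. A dimmer probe 3340 bases away was above 0 on 3 arrays and reached -0.53 with miR-139-3p. The 2 probes of AGO1 therefore did not give the same direction on 5 arrays.

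AGO2, whose product can cut its targets, was printed 10 times on each array, and 8 to 10 of its spots entered each value. In HCT116 its log2 ratio was 0.40 and -0.28 with the 5p and 3p strands of miR-139 and 0.13 and -0.48 with those of miR-143, with SDs between spots of 0.0301, 0.0720, 0.0280 and 0.0529 in that order. PANC-1 cells gave -0.03 and -0.08 with the miR-30c and -0.48 and 0.04 with the miR-30a strands, with SDs of 0.0579, 0.0528, 0.0550 and 0.0712. In both HCT116 precursors the strands gave AGO2 values on opposite sides of mock, higher for the 5p and lower for the 3p strand. The spread between spots covers the hybridisation alone, and that between cultures is unknown. The mock level of AGO2 in PANC-1 was 0.35 lower on the miR-30c than on the miR-30a arrays. With both mock averages pooled, the PANC-1 5p strands had AGO2 at -0.26 (miR-30c) and -0.35 (miR-30a). Under median centring AGO2 was at 0.64 with miR-139-5p and 0.67 with miR-30a-3p. The medians of all detected genes there were 0.10 and 0.30.

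AGO3 had 2 probes, which lay on opposite sides of mock on 5 arrays and farthest apart with miR-30c-2-3p. By the brighter probe, at chr1:36521552-36521611 of hg19, its log2 ratio in HCT116 was 0.26 and 0.50 with the 5p and 3p strands of miR-139 and 0.00 and -0.11 with those of miR-143. In PANC-1 it was -0.02 and 1.10 with the miR-30c and -0.11 and 0.47 with the miR-30a strands. The value with miR-30c-2-3p was 2.15-fold above mock. The second probe, at chr1:36439052-36439111 and 82500 bases upstream on the plus strand, gave -0.49 on that array, its lowest value, and 0.49 with miR-139-3p, its highest. With miR-30a-3p the second probe was at -0.01. Each of the probes was well above background throughout, so the direction of AGO3 with miR-30c-2-3p depended on the probe, while both gave the same sign and about the same size with miR-139-3p.

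AGO4 was the dimmest of the Argonaute signals, and its log2 ratios ran from -0.21 with miR-139-5p to 0.32 with miR-30c-2-3p. The scanner log ratio, converted to log2, put these 2 values at -1.10 and 0.74 and its highest at 0.91 with miR-139-3p. The sizes for AGO4 therefore depended on the handling of background, and the signs on these 3 arrays did not.

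**Figure D4:**
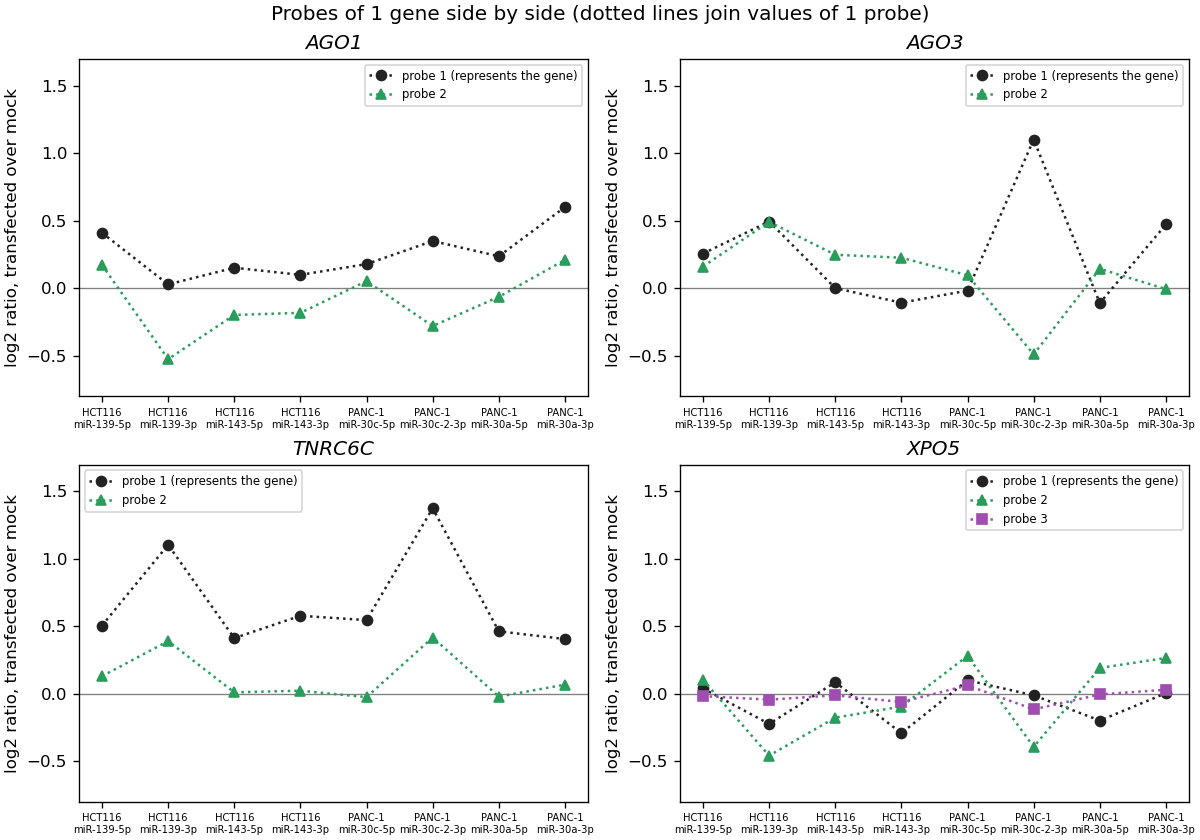
Log2 ratio of transfected over mock on the y axis for each array on the x axis, with 1 line per probe for the 4 genes that had more than 1 probe (AGO1, AGO3, TNRC6C and XPO5). Dotted lines join the values of 1 probe and are no time course. The 2 probes of AGO3 lie at 1.10 and -0.49 with miR-30c-2-3p.

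DROSHA, the nuclear RNase that makes the first cut, was below mock on 5 arrays and above it on 3. Its log2 ratio in HCT116 was -0.12 and -0.06 with the 5p and 3p strands of miR-139 and -0.27 and -0.60 with those of miR-143. The ratio in PANC-1 was 0.11 and -0.22 with the miR-30c and 0.01 and 0.50 with the miR-30a strands. All 4 HCT116 values lay below 0, a trait whose share over all genes was not counted. The lowest, a 1.52-fold difference, is just past the 1.5-fold size and was -0.56 with both mock averages of HCT116 pooled. Under median centring in place of loess DROSHA was at 0.17 with miR-139-5p and at 0.05 with miR-30c-2-3p, so those signs depend on the normalisation.

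XPO5, the export factor, had the narrowest range (under median centring that of AGO4 was narrower), from -0.29 (miR-143-3p) to 0.10 (miR-30c-5p), the first in HCT116 and the second in PANC-1. Its second probe ran from -0.46 with miR-139-3p to 0.28 with miR-30c-5p, and its dimmest probe stayed between -0.12 and 0.06. In the main processing no XPO5 probe passed 1.5-fold on any array. By the scanner log ratio the second probe was past that size with miR-139-3p, at -0.61. Under median centring it was past that size with miR-30c-5p, at 0.68, and with miR-30a-3p, at 0.81.

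Values of the miRNAs that share a seed lay about as close for the machinery as for all detected genes. Log2 ratios of the miR-30 5p strands had a median absolute difference of 0.0839 over the 10 genes, beside 0.0741 over 20269 genes detected on both arrays. They differed by less than 0.15 for 8 of the 10 genes, a count whose share over all genes was not taken. DICER1 was at 0.70 and 0.62, TNRC6C at 0.55 and 0.46 and AGO4 at 0.25 and 0.25. The exceptions were AGO2 (-0.03 and -0.48) and XPO5 (0.10 and -0.20). For AGO2 the transfected levels were 0.09 apart and the mock levels 0.35 apart in the opposite direction, so most of that difference lay in the mock channels. The arrays of both miRNAs used PANC-1 mock RNA.

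The strands of 1 precursor, which have different seeds, differed by a median of 0.307 over the 40 pairs of values. That median was not computed over all detected genes, so it is not set against that of the shared seed. Mock levels of the strands were at most 0.21 apart on the log2 scale except for AGO1 on the miR-139 arrays. There the mock levels were 0.38 apart and the transfected levels 0.01 apart. The strands of miR-30a were 1.43 apart for TNRC6A, with miR-30a-3p higher, and 1.13 apart for DICER1, with miR-30a-3p lower. Those of miR-143 were 1.18 apart for DICER1, with miR-143-5p lower. Those of miR-30c were 1.12 apart for AGO3 and 0.83 apart for TNRC6C, with miR-30c-2-3p higher. The widest gap between the strands of miR-139 was 0.68, for AGO2. For miR-143, as for miR-30a, the 2 strands put DICER1 on opposite sides of mock.

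Probes were then searched for the heptamers that pair with bases 2 to 8 of each miRNA, or with bases 2 to 7 followed by A. Only the letters of the 60-base probes were searched, and no transcript or UTR was. Between 0.591% and 1.79% of all 58201 probes held a heptamer of a given miRNA. Of the 15 machinery probes 1 did, the second probe of XPO5 at chr6:43490583-43490642 of hg19 on the minus strand, which holds ACTGAAA of miR-30a-3p at bases 41 to 47 of the probe. It is shown with its flanks, the heptamer in capitals, because it was the single match among these genes.
XPO5: tctagaggtcACTGAAAggccctgtaa
That probe was at 0.27 with miR-30a-3p, above mock. Detected genes with a heptamer of the array's own miRNA in the probe were compared with the rest. Their median log2 ratio was lower on every array except that of miR-143-3p. It was 0.08 (miR-30c) and 0.07 (miR-30a) lower for the 5p strands in PANC-1 and 0.02 higher for miR-143-3p. The lowest and highest of the 8 differences were -0.0848 and 0.0226. Which miRNA an array received was taken from its label and was not tested.

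The proteins that work beside the machinery were taken as 6 lists of 58 genes. On the 8 arrays 452 of their values came from detected genes. Of these, 31 (6.86%) were at least 1.5-fold below mock and 14 (3.10%) at least 1.5-fold above. Over the values of all detected genes on the 8 arrays the shares were 4.52% and 3.69%, and the shares by array, given above, enclose those of the lists together. Under median centring these counts were 19 and 80. The lists together had fewest past that size with miR-139-5p, 2 below and 0 above of 56 detected, and most with miR-30c-2-3p, 4 below and 6 above of 57. By array the combined median was lowest for miR-143-3p, at -0.11, and highest for miR-30c-2-3p, at 0.10.

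Decapping and decay, the last step of silencing, held the single value farthest from mock among the representing probes of the lists, that of DCP2. Of 80 values 8 (10%) were at least 1.5-fold below and 7 (8.75%) at least 1.5-fold above mock, beside 4.52% and 3.69% of all detected values. Most of those above and some of those below were values of DCP2, counted on several arrays. DCP2, the catalytic decapping enzyme, was at 1.35 and 1.80 with the miR-30c and 1.18 and 0.82 with the miR-30a strands in PANC-1. In HCT116 it was at -0.59 and 0.66 with the 5p and 3p strands of miR-139 and 0.07 and -0.63 with those of miR-143. DCP2 was above mock on all 4 PANC-1 arrays and on 2 of the 4 HCT116 arrays. DCP1B, a cofactor of decapping, was at -1.38 with miR-30c-2-3p and at -3.99 by the scanner log ratio. DDX6, a helicase that links silencing to decapping, was at -1.24 with miR-143-3p by its brighter probe and at -0.27 by its other probe.

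Among the 13 deadenylase genes 3 of 104 values (2.88%) were at least 1.5-fold below and 2 (1.92%) above mock, both under the shares of all detected values. CNOT6, a catalytic subunit of the CCR4-NOT complex, was at -1.21 with miR-143-5p. CNOT3, a structural subunit, was at -1.25 with miR-30c-2-3p by 1 probe and at 0.03 by the other, so its direction there is not settled. PAN3, which targets the PAN2 nuclease to its substrates, was the 1 deadenylase gene whose representing probe held a heptamer of a miR-30 guide strand, at chr13:28868784-28868843 of hg19 on the plus strand, shown because that match was shared by both 5p miRNAs of PANC-1.
PAN3: tgcaaggcaaGTTTACAtcacaaatcc
PAN3 stood at 0.02 for the miR-30c and at 0.10 for the miR-30a 5p strand, close to mock on both. The other list genes whose representing probe held a heptamer of the array's own miRNA were LSM1 at -0.38 and TENT2 at -0.51 (miR-139-5p), PATL1 at 0.13 (miR-30c-2-3p) and TUT7 at 0.15 and 0.06 for the miR-30 5p strands. With PAN3, 5 of these 7 values lay above mock and 2 below.

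Of the Dicer partners and loading factors 10 of 80 values (12.5%) were at least 1.5-fold below mock and 1 (1.25%) above, beside 4.52% and 3.69% of all detected values. Many of those below came from 1 gene, PTGES3, counted on several arrays and named after its values were seen. PTGES3 was at -0.83 and -0.70 with the miR-139 and -0.98 and -0.82 with the miR-143 strands. In PANC-1 it was at -0.63 and -0.14 with the miR-30c and -0.33 and -0.01 with the miR-30a strands. HSP90AA1, a chaperone that helps load Argonaute, was at -1.60 with miR-139-3p, and its other 2 probes were at -1.80 and -2.03. DNAJA2, a co-chaperone, was at -1.08 with miR-30a-3p. Both were thus more than 2-fold below mock on 1 array, although DNAJA2 was at -0.65 under median centring. This list had its lowest median, -0.38, with miR-139-3p.

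Of the RISC-associated genes 4 of 80 values (5%) were at least 1.5-fold below mock and 0 above, the first close to the 4.52% of all detected values. PABPC1, the cytoplasmic poly(A)-binding protein, was at -1.12 and GEMIN4, a component of Argonaute-containing complexes, at -1.04, both with miR-139-3p. With pooled mocks they were at -0.97 and -0.81, within 2-fold. Of the nuclear processing and export genes 1 of 40 values (2.5%) was at least 1.5-fold below mock and 0 above, and the list had its lowest median, -0.43, with miR-30a-3p. Of the tailing and turnover genes 5 of 68 values (7.35%) were below and 4 (5.88%) above by that size, beside 4.52% and 3.69% of all detected values. None of these last 2 lists had a value past 2-fold in the main processing. By the scanner log ratio both did, among them DDX17 at -1.30 with miR-30a-3p and ZSWIM8 at 1.05 with miR-139-3p.

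LIN28B, which blocks let-7 processing, was detected in PANC-1 alone, on its 4 arrays, and is named after its values were seen. It was at -0.90 and 0.97 with the miR-30c and -0.87 and 0.93 with the miR-30a strands. Both 5p strands, which share a seed, lay below mock and both 3p strands above it. The scanner log ratio gave -1.22, 1.13, -1.10 and 0.92 in the same order.

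The mock channels allowed the machinery to be compared between untransfected HCT116 and PANC-1. The 2 mock channels of 1 precursor were averaged, which left 2 averages per line, and limma was fitted to 22371 genes with Benjamini-Hochberg adjustment. Nothing says that the averages of a line are separate cultures, so the p-values measure only the spread between these samples. The lines filled different columns of the slide, so line and column cannot be told apart. Over all genes 43.4% passed an adjusted p of 0.05, 22.7% higher in HCT116 and 20.8% higher in PANC-1, and 3 of the 10 machinery genes did.

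TNRC6B was 1.29-fold higher in HCT116 than in PANC-1, a log2 difference of 0.36 ± 0.10 (SE, 2 averages per line, limma adjusted p = 0.042). Its averages were 7.58 and 7.60 in HCT116 and 7.27 and 7.18 in PANC-1. AGO4 was 1.17-fold higher in PANC-1, a log2 difference of -0.23 ± 0.05 (SE, limma adjusted p = 0.0147), with averages of 6.08 and 6.09 in HCT116 against 6.33 and 6.30. Without background correction the AGO4 difference was -0.45, so its size depended on the handling of background. XPO5 was 1.31-fold higher in PANC-1, at -0.39 ± 0.11 (SE, limma adjusted p = 0.0396), with averages of 7.57 and 7.61 against 7.92 and 8.03. For these 3 genes no mock channel of 1 line overlapped those of the other, a trait whose share over all genes was not counted. TNRC6B did not pass without the miR-143 average (limma adjusted p = 0.0516) or under median scaling (limma adjusted p = 0.108), and XPO5 did not without the miR-139 average (limma adjusted p = 0.0539) or with dim probes kept (limma adjusted p = 0.0557). None of the 10 genes passed when either PANC-1 average was left out, where the smallest limma adjusted p was 0.0942 and 0.0707 and the lone average is assumed to vary like the other line.

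The other 7 genes did not pass. AGO1 had the largest difference of all 10, -0.46 ± 0.20 (SE, limma adjusted p = 0.121), with HCT116 averages 0.51 apart, farther than those of any other machinery gene. Without the miR-139 average AGO1 was at -0.71 and passed (limma adjusted p = 0.00794), and without the miR-143 average it was at -0.20 and did not (limma adjusted p = 0.244). It also passed under median scaling, at -0.66 (limma adjusted p = 0.036), and with all 4 channels of a line as samples (limma adjusted p = 0.0187). DICER1 had the smallest, 0.02 ± 0.11 (SE, limma adjusted p = 0.91), with 8.14 and 8.08 in HCT116 and 8.07 and 8.11 in PANC-1. The channels of the lines overlapped for AGO1, AGO2, AGO3 and DICER1. They did not for TNRC6A, TNRC6C and DROSHA, whose limma adjusted p were 0.299, 0.134 and 0.255. Without the share of all genes that lacked overlap, this is not read as a trait of the machinery. With 2 averages per line these misses do not show that the levels were alike.

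**Figure D5:**
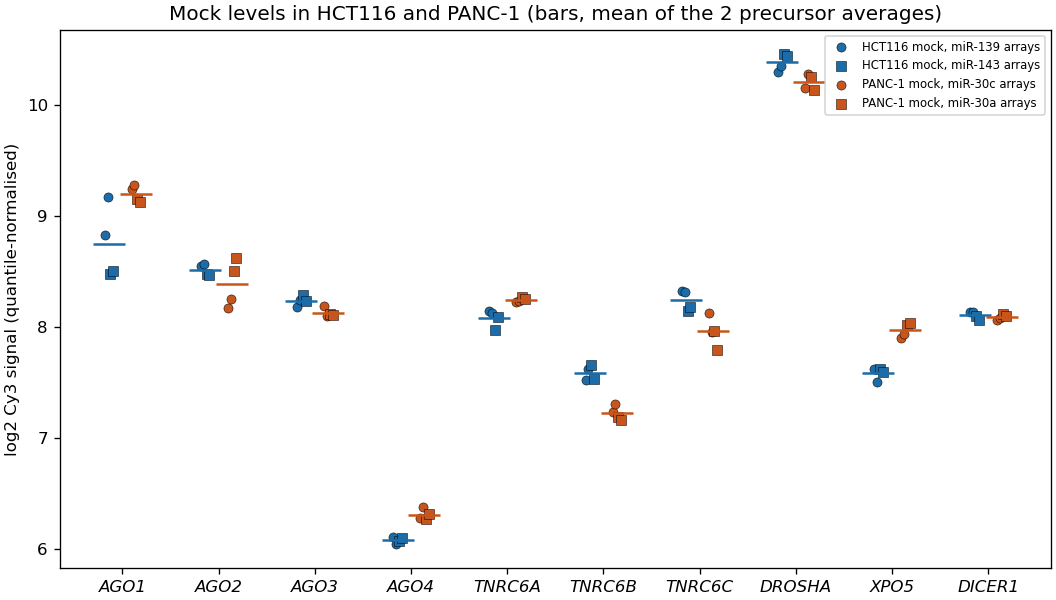
Log2 Cy3 signal of mock cells after quantile normalisation on the y axis for the 10 machinery genes on the x axis. Points are the 8 mock channels (blue, HCT116; orange, PANC-1; circles and squares, the precursors of a line) and bars are the mean of the 2 precursor averages of a line. The points of the lines do not overlap for AGO4, TNRC6B and XPO5, which passed the test. They also do not for TNRC6A, TNRC6C and DROSHA, which did not pass. Signals of different genes come from different probes and are not comparable.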

How the data were processed

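Gene expression was measured on 8 two-channel arrays (Cy5, 1 transfected miRNA; Cy3, mock) of 2 cell lines, grouped by the labels. The authors' scanner files, made with Agilent Feature Extraction 11.5.1.1 and annotated on hg19, hold each spot's mean intensity and background intensity per channel. The deposited log10 ratio (processed Cy5 over Cy3) is that of the scanner. The authors' value table held the same log10 ratios, with a largest difference of 0 over 62976 spots and a column median of 0, and 0 of its columns lacked a sample.

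In R 4.3.3 with limma 3.58.1, intensities were corrected by normexp (offset 50) and log2 ratios by loess. Spots called outliers (75 to 129 per array) were dropped and spots of a probe averaged. No spot was saturated. Mock levels were quantile-normalised and tested with lmFit and eBayes (2-sided, trend), with a threshold of 0.05. Both steps were tested on simulated data. Python 3.11.15 served for tables (pandas 2.3.3, numpy 2.4.6) and plots (matplotlib 3.10.9). Median signals of 22.2 to 26.5 over backgrounds of 17 to 20 limit precision for dim probes.

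The genes and lists were chosen with earlier results of these data known. All 10 genes were named. From the lists, genes at least 2-fold from mock and well above background in both channels were named, at most 3 per array and list, and 3 genes most like the gene of widest range in the main setting. All 71 list and marker symbols were found, 4 by an older name. Alternatives covered background correction, the scanner log ratio (converted to log2), centring, averaging of probes, the mock used, the filter on dim probes, the fold size and each mock average left out. Single probes and same-dye levels were added after seeing the data.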

Additional observations from a re-analysis of the deposited data

How the results depend on the processing

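No paired analysis was possible because each miRNA had 1 array. Dim signals and the offset limit sizes, and 1 array per miRNA leaves the spread between cultures unknown. The cause of each difference given here was not tested. Of the 14 machinery values past 1.5-fold, 13 kept sign and size without background correction, 13 by the scanner log ratio, 12 by median centring, 12 by the mean over probes and 12 with pooled mocks. Of all 80, 14 took the other sign under median centring. Values of 2 strands stand in the order 5p, 3p. Not every array whose count changed is listed. Shares of all detected genes past 1.5-fold were computed in the main setting alone. The counts under other settings therefore do not set the machinery apart from other genes.

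By the scanner log ratio, machinery genes above mock by 1.5-fold numbered 6 (miR-139 3p), 1 and 2 (miR-143 strands), 2 and 5 (miR-30c strands) and 1 (miR-30a 3p), and those below mock 1 (miR-139 5p), 2 (miR-143 5p) and 1 (miR-30a 3p). The machinery median was 0.67 (miR-139 3p) and 0.47 (miR-30c 3p). Genes of the other lists above mock numbered 5 (miR-139 3p), 1 (miR-143 3p), 13 (miR-30c 3p) and 2 and 4 (miR-30a strands), and those below 4 (miR-139 5p) and 8 and 5 (miR-143 strands).

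Under median centring, machinery genes above mock numbered 5 (miR-139 5p), 4 (miR-30c 5p) and 3 and 6 (miR-30a strands), and 0 lay below for both strands of miR-143. The machinery median was 0.56 (miR-139 5p), 0.19 (miR-143 5p), 0.47 and 0.48 (miR-30c strands) and 0.34 and 0.82 (miR-30a strands). Genes of the other lists above mock numbered 7, 2, 16, 13, 6 and 33 on these 6 arrays, and those below 1 (miR-139 5p), 0 (miR-30c 5p) and 0 and 1 (miR-30a strands).

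At 2-fold, machinery genes above mock numbered 1 and 1 (miR-139 strands), 0 (miR-30c 5p) and 0 and 1 (miR-30a strands), and 0 lay below for either strand of miR-143. With pooled mocks, 0 lay below (miR-143 3p), 2 above (miR-30c 5p) and 1 above (miR-30a 3p), and of the other lists 6 above (miR-139 3p), 6 below (miR-143 3p) and 1 above (miR-30c 5p). Without background correction, 2 lay below (miR-143 5p), 1 above (miR-143 3p), 1 below and 1 above (miR-30a 3p), and of the other lists 1 above (miR-143 3p), 8 below (miR-30c 3p) and 7 below (miR-30a 3p). With the mean over probes, 1 lay above (miR-30a 3p), and 1 of the other lists (miR-30c 5p). The second probe of AGO3 gave -0.49 with miR-30c-2-3p.

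In the mock comparison by limma, the count of machinery genes higher in HCT116 was 0 under median scaling and 3 with all 4 channels of a line as samples, and that of genes higher in PANC-1 was 4 with all channels and 1 when dim probes were kept. Leaving out 1 mock average gave 0 to 1 genes higher in HCT116 and 0 to 2 higher in PANC-1, with 0 and 0 when either PANC-1 average was left out, and 0 higher in HCT116 without its miR-143 average. Under median scaling HCT116 minus PANC-1 took the other sign for AGO2 (-0.075), AGO3 (-0.059), DROSHA (-0.018) and DICER1 (-0.14). With 1 average left out it ranged from -0.050 to 0.30 for AGO2 and from -0.010 to 0.045 for DICER1. None of these differences passed the threshold.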
